A study of Mus musculus with 3 samples.

Results

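The 10 genes described here mark conventional dendritic cells or dendritic cells that have matured and left a tissue: Ccr7, Fscn1, Ccl17, Ccl22, Il4i1, Zbtb46, Flt3, Batf3, Cd209a and Xcr1. They were taken as a given list of names, all 10 were found once among the 22238 genes listed in all 3 libraries, and 9 of them exceeded 3 TPM (a level scaled for transcript length and depth) in at least 1 library. RNA-Seq was done on 3 populations sorted from wild-type (WT) female C57BL/6J mice, 10 to 12 weeks old, with EAE, a mouse model of multiple sclerosis. All mice, those that gave the bone marrow cells included, had received myelin oligodendrocyte glycoprotein peptide in complete Freund's adjuvant and 250 ng of pertussis toxin at 2 and 24 hours, and the cells were taken at days 14 to 15.

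Bone marrow monocytes were sorted as Ly6Chi cells that were CD45+, CD11b+, Ly6G- and CD11c-, and came from 13 mice pooled over 2 experiments. Spinal cord monocytes were Ly6Chi and CD64+ within the CD45+ CD11b+ Ly6G- cells and came from 18 mice in 3 experiments. Spinal cord monocyte-derived APCs differed in the gate by being Ly6Clow/-, and also came from 18 mice in 3 experiments. Each population was 1 pooled library, so no difference below has a replicate check and no test of the populations was possible. The CD64 gate was meant to leave out conventional dendritic cells, and a gate on high CD45 to leave out microglia. CD11c, a surface protein of dendritic cells, was gated out in the bone marrow sort only, so that tissue and gate cannot be told apart for these genes. A label of the APC library names the bone marrow as its source, while its title and tissue field give the spinal cord, which is followed here.

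Dendritic cells take up antigen in a tissue and, on maturation, display it, raise costimulatory molecules and migrate through lymph to the draining node, where they prime T cells. CCR7, the receptor for CCL19 and CCL21, guides that migration, and fascin, encoded by Fscn1, bundles the actin of their long processes. CCL17 and CCL22 are ligands of CCR4 on T cells. The growth factor receptor FLT3 and the transcription factors ZBTB46 and BATF3 belong to the development of conventional dendritic cells, and XCR1 and CD209a are surface receptors by which subsets are told apart.

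Where 3 values are given in a row, they stand for the bone marrow monocytes, the spinal cord monocytes and the APCs, in this order. The libraries held 26116588 to 32115707 estimated reads over the common genes, and a level of 3 TPM or more was reached by 9345 to 9428 genes. Levels are TPM rescaled to the same sum over the common genes, with a 95% Wilson interval, and the floor of a library is the TPM that 3 reads give. These intervals, and the 98% intervals of log2 ratios, cover counting error only, since each population was 1 library. Copies made by PCR count as reads but are not separate molecules, so the intervals can be too narrow even for counting error. A gene was called higher or lower where the 98% interval of its log2 ratio lay beyond a 2-fold change and its level was over 3 TPM in either library of the pair. The APC library had been quantified on another set of transcripts than the monocyte libraries, with 22242 genes in place of 54432. The effective lengths of the 10 genes in APCs were 0.905 to 1.18 times those in spinal cord monocytes. The sorted cells carried their gate: the monocyte gene Ly6c2 was at 5205, 3602 and 1067 TPM, and Fcgr1, which encodes CD64, at 81.3, 274 and 138 TPM. Ly6g was at 1.64 to 2.57 TPM in the 3 libraries.

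The promoters of the genes that moved most and of the gene that moved the other way are shown first. In RefSeq (GRCm38.p6), 9 of the 10 genes had a promoter entry, and Ccr7 had none. Each line is the 250 bases before the start site on the strand of the gene, with matches to the motifs searched in capitals.

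Ccl17, chr8:94810203-94810452, plus strand: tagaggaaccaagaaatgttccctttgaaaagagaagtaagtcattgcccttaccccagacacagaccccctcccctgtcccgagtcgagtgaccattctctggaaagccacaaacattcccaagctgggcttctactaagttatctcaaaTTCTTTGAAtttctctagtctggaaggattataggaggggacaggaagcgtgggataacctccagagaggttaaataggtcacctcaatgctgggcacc

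Ccl22, chr8:94745434-94745683, plus strand: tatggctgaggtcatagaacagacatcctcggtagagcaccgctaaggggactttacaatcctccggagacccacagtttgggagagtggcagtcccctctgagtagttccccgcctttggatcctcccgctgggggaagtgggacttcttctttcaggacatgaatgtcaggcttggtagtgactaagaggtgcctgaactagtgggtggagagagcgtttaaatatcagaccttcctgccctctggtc

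Fscn1, chr5:142960105-142960354, plus strand: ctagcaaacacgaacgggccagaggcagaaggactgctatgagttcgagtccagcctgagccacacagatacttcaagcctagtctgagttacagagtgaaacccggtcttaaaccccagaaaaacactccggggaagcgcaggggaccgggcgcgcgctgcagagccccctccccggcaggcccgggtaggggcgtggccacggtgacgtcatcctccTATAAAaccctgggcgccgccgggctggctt

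Flt3, chr5:147400490-147400739, minus strand: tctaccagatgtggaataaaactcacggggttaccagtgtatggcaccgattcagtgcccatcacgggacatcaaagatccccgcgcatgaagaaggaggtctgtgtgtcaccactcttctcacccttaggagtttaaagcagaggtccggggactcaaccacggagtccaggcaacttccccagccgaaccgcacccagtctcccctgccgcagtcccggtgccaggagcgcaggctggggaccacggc

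The motifs were counted on both strands of these windows. TTCNNNGAA, the letters bound by STAT5, stood in the promoters of Ccl17 and Batf3, 2 of 9, and in 7.02% of all 32851 promoters. The match in Ccl17 ended 91 bases before the start site. TATAAA stood in 3 of 9 (Fscn1, Cd209a and Xcr1) against 12.4% of all promoters, and in Fscn1 it ended 26 bases before the start site. GGGNNNTTC, part of the NF-kappa B motif, stood in 0 of 9 against 11.8%, TGANTCA, the AP-1 motif, in 1 of 9 (Zbtb46) against 6.75%, and GGAANNGAA, for PU.1 with an IRF, in 1 of 9 (Cd209a) against 6.99%. The windows of Ccl22 and Flt3 held none of these letters. The windows of Zbtb46, Il4i1 and Batf3 lie inside the annotated span of the gene, since the RefSeq start is 35038, 19901 and 567 bases downstream of the outermost GENCODE start, so they do not show the bases before the outermost start. The GC content was 47.6% for Ccl17, 53.6% for Ccl22, 62.4% for Fscn1 and 59.2% for Flt3, with a median of 52.4% over all promoters.

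The 10 genes together made up 41.5 TPM in the bone marrow library, 56.0 TPM in spinal cord monocytes, and in the APC library 837 TPM. What made up that sum differed. In bone marrow monocytes, Flt3 alone gave 37.8 TPM, and 4 of the 10 genes had 3 reads or fewer. In APCs, Ccl17, Ccl22 and Ccr7 gave 86.3% of the sum, against 60.3% in spinal cord monocytes and 0.468% in bone marrow monocytes. Per length, the order in APCs was Ccl17, Ccl22, Ccr7, Fscn1, Il4i1, Cd209a, Flt3, Batf3, Zbtb46 and Xcr1. Neighbours in that order had intervals apart from each other, except Cd209a, Flt3 and Batf3, whose intervals overlapped. In spinal cord monocytes the order began with Ccl17 and Batf3, and the intervals of Ccl22, Fscn1, Flt3 and Ccr7 overlapped, as did those of Cd209a and Il4i1 and those of Zbtb46 and Xcr1.

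**Figure D1:**
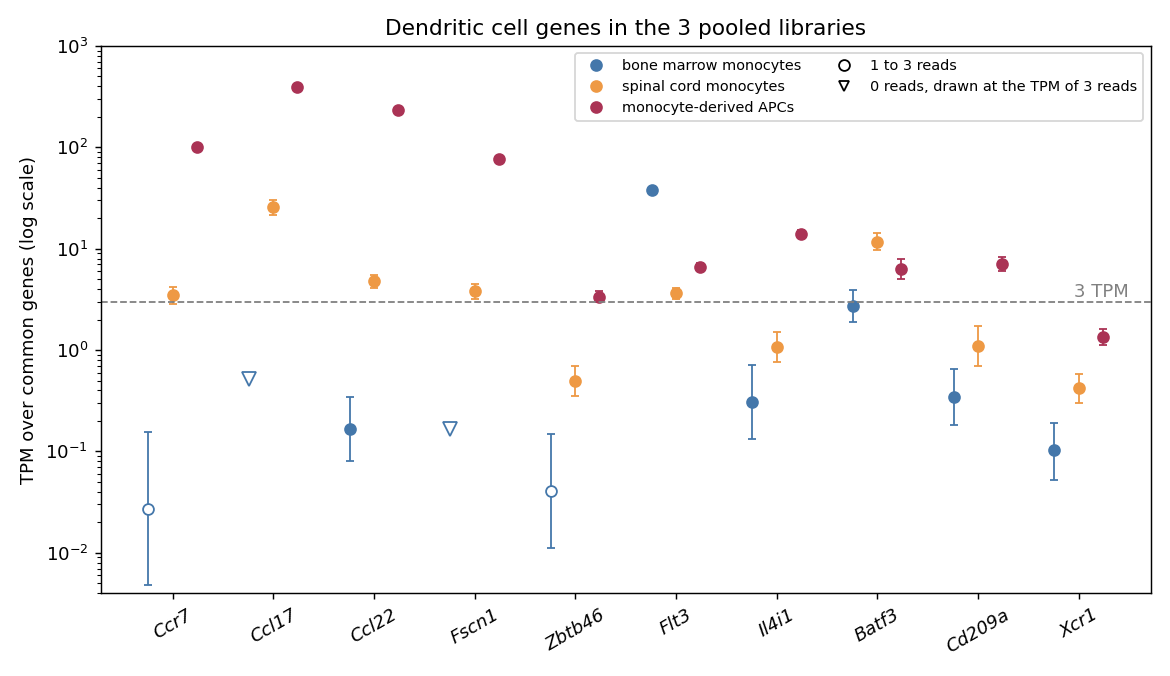
Level of each of the 10 genes in the 3 pooled libraries, in TPM over the common genes on a log axis, with 95% Wilson intervals that cover counting error only. Ccr7, Ccl17, Ccl22 and Fscn1 rise from at most 7 reads in bone marrow monocytes to 75.9 to 390 TPM in APCs, while Flt3 is highest in bone marrow monocytes and Batf3 in spinal cord monocytes.

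The first comparison set the spinal cord monocytes against those of the bone marrow. They were separate sorts, and the bone marrow sort did not gate on CD64. Bone marrow cells were enriched with a monocyte isolation kit, whereas spinal cords were digested with collagenase and separated on a Percoll gradient. Tissue, preparation and gate cannot be told apart in any comparison with bone marrow monocytes. Of the 10 genes, 6 passed the filter on TPM, 5 were called higher (Ccr7, Ccl17, Ccl22, Fscn1 and Batf3) and 1 lower (Flt3). Of all 10072 genes tested, 13.8% were called higher and 10.7% lower. A gene with next to no reads in bone marrow could pass the filter only by being high in the spinal cord, so these counts do not show that the 10 genes moved more often than others.

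APCs were then compared with spinal cord monocytes, which differ from them in the Ly6C gate within the same tissue. Here 9 of the 10 genes passed the filter, 7 were called higher (Ccl22, Ccr7, Fscn1, Ccl17, Il4i1, Cd209a and Zbtb46) and 0 lower. Of all 9734 genes tested, 1.93% were called higher and 1.70% lower, 188 and 165 genes. With reads divided by effective length those counts were 232 and 320, and the 7 genes were called again. The 7 genes stood at places 11 to 49 when the 9734 genes were ranked by log2 ratio from the highest. Il4i1, Cd209a and Zbtb46 passed the filter only through the APC library, where they were high, and the genes were chosen with earlier results known, so the count and the places are a description and no support. Between APCs and bone marrow monocytes, 7 of the 9 genes that passed were called higher and 1 (Flt3) lower, against 14.0% and 11.8% of 10190 genes. The 3 comparisons share libraries, so they are not independent of each other. In a bulk library, fewer cells of a type and less RNA per cell cannot be told apart.

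**Figure D2:**
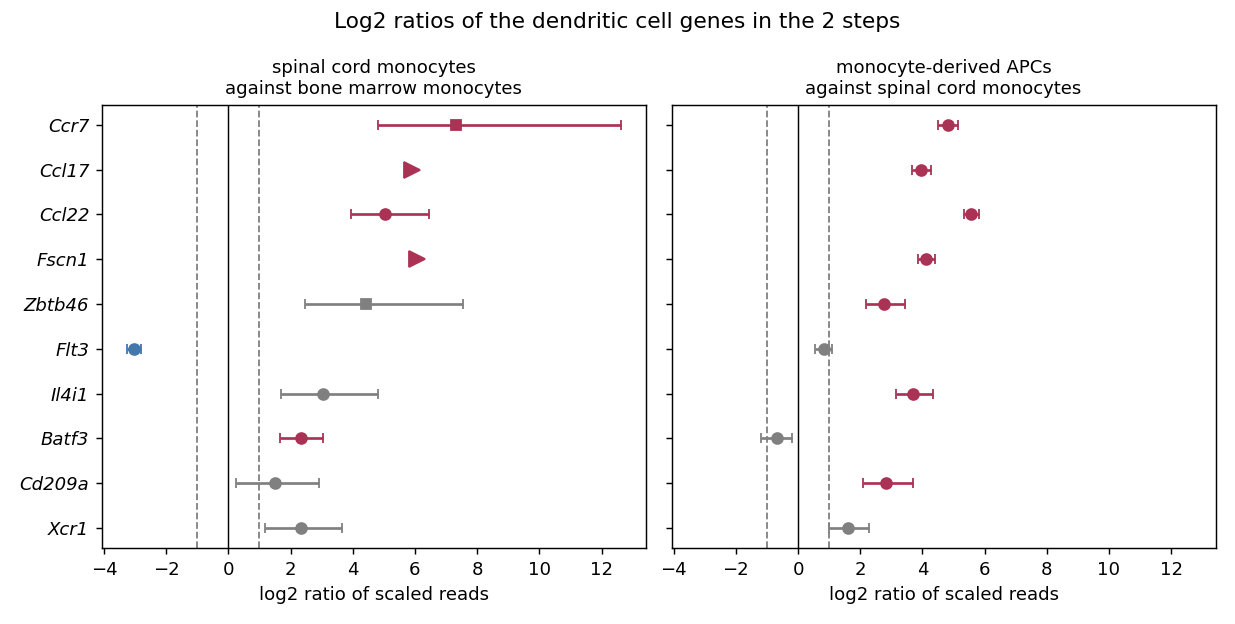
Log2 ratio of scaled reads for each gene, left for spinal cord monocytes against bone marrow monocytes and right for APCs against spinal cord monocytes. Circles carry 98% intervals, squares are ratios against 1 to 3 reads with 95% intervals, triangles are lower bounds against 0 reads, and red, blue and grey mark genes called higher, called lower and not called. The points of all genes but Batf3 and Flt3 lie above the upper dashed 2-fold line in both panels. Of these, Ccr7, Ccl17, Ccl22 and Fscn1 were called higher in both. Il4i1, Zbtb46, Cd209a and Xcr1 did not pass the TPM filter on the left. Flt3 lies at -3.04 on the left.

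Ccr7 (chr11:99144196-99155077, minus strand, 3 exons), the homing receptor, had 1 read in the bone marrow library, 114 in spinal cord monocytes and 3594 in the APC library. Its levels were 0.0272 TPM (0.00480 to 0.154), under the floor of 0.0817 TPM, 3.46 TPM (2.88 to 4.15) and 99.8 TPM (96.5 to 103). The gene was thus at the edge of detection in the marrow, just over 3 TPM in spinal cord monocytes and among the higher genes in APCs, where 94.4% of the common genes lay below it. The ratio of spinal cord to bone marrow monocytes was 159, with a counting interval of 28.0 to 6343. APCs exceeded spinal cord monocytes by 4.81 on the log2 scale (4.51 to 5.14), or 28.1-fold. Its effective length was nearly the same in the 3 libraries (ratios of 0.989 and 1.02). Reads and TPM gave close log2 ratios of APCs to spinal cord monocytes, 4.81 and 4.85. The ratio of 159 was taken in scaled reads, and the TPM of the monocyte libraries give a smaller one. The ligand genes of CCR7 were low: Ccl19 had 0, 34 and 13 reads, and Ccl21a had 0, 2 and 0.

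Fscn1 (chr5:142960343-142973185, plus strand) had 0, 144 and 2811 reads. No read was seen in bone marrow, where the floor was 0.167 TPM and the interval reached 0.214 TPM, at the effective length of 841 bases listed there (1963 and 1777 bases in the spinal cord libraries), and its levels were 3.79 TPM (3.22 to 4.46) and 75.9 TPM (73.2 to 78.8) in the spinal cord libraries. The populations were therefore ordered as for Ccr7, with none of the intervals touching. Against the floor of 3 reads, spinal cord monocytes were at least 67.0-fold higher than bone marrow monocytes in reads and at least 22.7-fold higher in TPM, and APCs exceeded spinal cord monocytes by 4.12 on the log2 scale (3.85 to 4.42). The levels of Ccr7 and Fscn1 stayed close, with a TPM ratio of 0.913 in spinal cord monocytes and 1.31 in the APC library. In spinal cord monocytes both lay just over the filter, and with a threshold of 4 TPM in place of 3 neither was called against bone marrow monocytes, nor was Ccr7 over all genes of the monocyte libraries.

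Ccl17 (chr8:94810453-94812036) and Ccl22 (chr8:94745590-94751699) lie on the plus strand 58753 bases apart, with Cx3cl1 between them. Ccl17 had 0 reads in bone marrow monocytes, where the floor was 0.516 TPM, 129 in spinal cord monocytes and 2259 in the APC library, or 25.5 TPM (21.5 to 30.3) and 390 TPM (374 to 406) in the spinal cord libraries. It was the highest of the 10 genes in both spinal cord libraries. Spinal cord monocytes were at least 60.1-fold higher than bone marrow monocytes in reads and at least 49.5-fold higher in TPM, and APCs exceeded them by 3.97 on the log2 scale (3.67 to 4.28). Ccl22 had 7, 179 and 9550 reads, or 0.167 TPM (0.0811 to 0.346), 4.76 TPM (4.11 to 5.51) and 233 TPM (228 to 238). Its log2 ratio was 5.03 (3.94 to 6.45) between the monocyte libraries and 5.58 (5.33 to 5.84) between APCs and spinal cord monocytes, so that the difference of 10.61 (9.55 to 12.01) between APCs and bone marrow monocytes was spread over both steps.

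Ccl22 had more reads than Ccl17 in every library, and an effective length of 1966 bases against 278 in APCs. Per length Ccl17 was above Ccl22, by a TPM ratio of 5.36 in spinal cord monocytes and 1.67 in the APC library. The log2 ratio of Ccl22 between APCs and spinal cord monocytes was the larger, with 98% intervals that did not overlap, so this chemokine pair did not rise by equal factors. Both intervals cover counting error alone. Of 5 genes around this pair in the same stretch of chromosome 8, 3 passed the filter in each comparison and 0 were called. Over all genes tested, 13.8% were called higher and 10.7% lower between the monocyte libraries. The shares were 1.93% and 1.70% between APCs and spinal cord monocytes, and 14.0% and 11.8% between APCs and bone marrow monocytes. Ciapin1, Coq9 and Polr2c were at 12.3 to 44.3 TPM in all 3 libraries, with log2 ratios of APCs to spinal cord monocytes whose median was -0.22. Cx3cl1, which encodes another chemokine and was named after its values were seen, had 0, 27 and 179 reads and reached 2.99 TPM in APCs, just under the filter. Its log2 ratio of APCs to spinal cord monocytes was 2.54 (1.89 to 3.27), but under the filter it could not be called. Ccr4, the receptor for both ligands, had 0, 27 and 64 reads, or 0.552 and 1.20 TPM in the spinal cord libraries.

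Il4i1 (chr7:44816387-44840809, plus strand), which encodes a secreted L-amino acid oxidase, had 5, 33 and 490 reads. Its levels were 0.307 TPM (0.131 to 0.719), 1.08 TPM (0.767 to 1.51) and 14.0 TPM (12.8 to 15.3). APCs were the only library over 3 TPM, and they exceeded spinal cord monocytes by 3.71 on the log2 scale (3.14 to 4.34). The monocyte libraries differed by 3.05 in reads and by 1.81 in TPM, since the effective length in spinal cord monocytes was 2.07 times that in bone marrow monocytes, and this pair did not pass the filter. Il4i1 shares its strand and part of its span with Nup62, a gene with 1330, 1003 and 1193 reads, so that single reads of Il4i1 in the monocyte libraries are uncertain. Among 10 genes of amino acid catabolism and the aryl hydrocarbon receptor, 5 passed the filter between APCs and spinal cord monocytes. Of these, 1 was called higher and 0 lower, against 1.93% and 1.70% of all genes tested. Their median log2 ratio was 0.43 against -0.04 over all genes tested. The gene called was Kmo, a kynurenine-pathway enzyme, at 10.5 TPM in APCs and 1.68 TPM in spinal cord monocytes. Arg1, arginase 1, was called higher between the monocyte libraries, from 2.27 to 3097 TPM.

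Zbtb46 (chr2:181387762-181459426, minus strand), a transcription factor of conventional dendritic cells, had 2, 31 and 241 reads. Its levels were 0.0404 TPM (0.0111 to 0.147), under the floor of 0.0606 TPM, 0.496 TPM (0.349 to 0.703) and 3.37 TPM (2.97 to 3.82). It ran in the order of the libraries seen for Ccr7 at a far lower level: Ccr7 was 29.6 times Zbtb46 by TPM in APCs and 6.98 times in spinal cord monocytes. The log2 ratio of APCs to spinal cord monocytes was 2.78 (2.17 to 3.45). This call rested on a level near the filter, and with a threshold of 4 TPM it was lost. Between the monocyte libraries the ratio was 21.6, with a counting interval of 5.51 to 187, and no call was made because neither library reached 3 TPM.

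Flt3 (chr5:147330741-147400489, minus strand, 24 exons), the receptor tyrosine kinase of dendritic cell progenitors, went the other way. It had 2746 reads in the bone marrow library, 239 in spinal cord monocytes and 472 in the APC library, or 37.8 TPM (36.4 to 39.3), 3.65 TPM (3.21 to 4.14) and 6.65 TPM (6.07 to 7.27). The bone marrow library was far above both spinal cord libraries. The log2 ratio of spinal cord to bone marrow monocytes was -3.04 (-3.27 to -2.82), and 9866 was its place among the 10072 genes ranked from the highest. APCs lay above spinal cord monocytes by 0.82 (0.56 to 1.09), an interval that excludes equal levels within counting error but reaches under a 2-fold change, so no call was made. Flt3l, which encodes its ligand, was at 12.3, 8.97 and 6.15 TPM and was not called in any comparison.

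Marker genes of bone marrow progenitors differed between the libraries as well, in both directions. Of 8 such genes, 6 were over 3 TPM in bone marrow monocytes, and the list summed to 742, 119 and 108 TPM. Between the monocyte libraries 5 of the 8 were called lower and 2 higher, against 10.7% and 13.8% of all genes tested. Prtn3 and Elane, proteases of granulocyte and monocyte progenitors, were at 329 and 172 TPM in bone marrow monocytes and at 56.6 and 3.50 TPM in spinal cord monocytes. Cd34 and Kit, surface markers of progenitors, went the other way, with 3.03, 12.5 and 35.7 TPM and 0.208, 1.70 and 6.92 TPM, and Sox4 stood at 0.722, 5.80 and 12.5 TPM. The part of progenitors in the level of Flt3 was not tested.

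Batf3 (chr1:191097847-191108945, plus strand), a leucine zipper factor needed by the cDC1 subset, had 29, 106 and 73 reads. Its levels were 2.74 TPM (1.91 to 3.94), 11.7 TPM (9.68 to 14.2) and 6.34 TPM (5.04 to 7.97). It was the only one of the 10 genes whose highest level was in spinal cord monocytes. The log2 ratio was 2.33 (1.66 to 3.06) between the monocyte libraries, which was called, and -0.69 (-1.21 to -0.19) between APCs and spinal cord monocytes, which was not. Against bone marrow monocytes the APCs were higher by 1.64 (0.93 to 2.40), also not called.

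Cd209a (chr8:3743397-3748984, minus strand), a C-type lectin known from monocyte-derived dendritic cells, had 9, 19 and 155 reads, or 0.344 TPM (0.181 to 0.654), 1.10 TPM (0.703 to 1.72) and 7.07 TPM (6.04 to 8.28). The APC library stood apart from both monocyte libraries. The log2 ratio of APCs to spinal cord monocytes was 2.83 (2.08 to 3.69). Its 6 close relatives, Cd209b to Cd209g, were at or near 0: the highest was Cd209c, with 5, 5 and 27 reads, and none passed the filter.

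Xcr1 (chr9:123852315-123862029, minus strand), the XCL1 receptor of cDC1 cells, had 9, 34 and 118 reads. Its levels were 0.102 TPM (0.0528 to 0.191), 0.424 TPM (0.301 to 0.587) and 1.34 TPM (1.12 to 1.61), all above the floors but under the filter in every library. The log2 ratio of APCs to spinal cord monocytes was 1.62 (0.99 to 2.30). Xcl1, the gene of its ligand, had 0, 4 and 28 reads, or 4.70 TPM in APCs. Cd209a exceeded Xcr1 by a TPM ratio of 2.59 in spinal cord monocytes and 5.27 in the APC library.

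The other genes of these programmes were read from gene lists that hold none of the 10. Of 40 genes of the mature migratory programme, 29 passed the filter between the monocyte libraries. Of these, 22 were called higher and 0 lower, against 13.8% and 10.7% of all genes tested. Their median log2 ratio was 3.31 against -0.15 over all genes tested. Cd83, a surface marker of mature dendritic cells, rose from 0.345 to 139 TPM, and Cxcl16, a membrane-bound chemokine, from 1.02 to 314 TPM. Between APCs and spinal cord monocytes, 36 passed, 12 were called higher (33.3% of those that passed, against 1.93% of all genes tested) and 0 lower, with a median of 0.40 against -0.04 over all genes. Among them were Il12b, the p40 chain of IL-12, from 0.952 to 12.8 TPM, and Cacnb3, a calcium channel subunit, from 1.75 to 17.2 TPM, whose effective length in APCs was 1.67 times that in spinal cord monocytes. Cd83, at 139 and 133 TPM, was not called in this comparison. Il12b, Cacnb3 and others of the 12 passed the filter only through the APC library, where they were high. These lists were also chosen with earlier results of the same libraries known, so the counts and shares are a description and no support.

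Of 21 genes of the conventional dendritic cell core, 17 passed between the monocyte libraries, with 5 called higher, 5 lower and a median log2 ratio of -0.51. The shares over all genes tested were 13.8% higher and 10.7% lower, with a median of -0.15. Between APCs and spinal cord monocytes, 19 passed, 8 were called higher and 0 lower, and the median log2 ratio of the 19 was 1.10. The shares over all genes tested were 1.93% higher and 1.70% lower, with a median of -0.04. Some of the 8, Kit among them, passed the filter only through the APC library, where they were high, so this count is a description and no support. Kit, a growth factor receptor of the same family as Flt3, rose from 1.70 to 6.92 TPM, P2ry10, a lysophospholipid receptor, from 8.91 to 45.4 TPM, and Itgax, which encodes CD11c, from 48.9 to 121 TPM. Itgax was at 0.247 TPM in the bone marrow library, whose gate left out CD11c+ cells.

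Of 15 cDC1 genes, 12 passed between APCs and spinal cord monocytes and 2 were called higher, Itgae (0.637 to 3.24 TPM) and Cadm1 (1.82 to 5.44 TPM), with a median log2 ratio of 0.27. Clec9a, a receptor for dead cells, was called between the monocyte libraries (0.108 to 4.38 TPM) and stood at 7.40 TPM in APCs. Of 13 genes of cDC2 and monocyte-derived dendritic cells, 9 passed in the same comparison and 2 were called higher, with a median of -0.06. They were Mgl2, a galactose lectin, from 0.818 to 20.7 TPM, and Irf4, a transcription factor, from 5.63 to 10.8 TPM. No gene of either list was called lower in that comparison. The shares over all genes tested were 1.93% higher and 1.70% lower. Itgae, Cadm1 and Mgl2 passed the filter only through the APC library, where they were high.

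**Figure D3:**
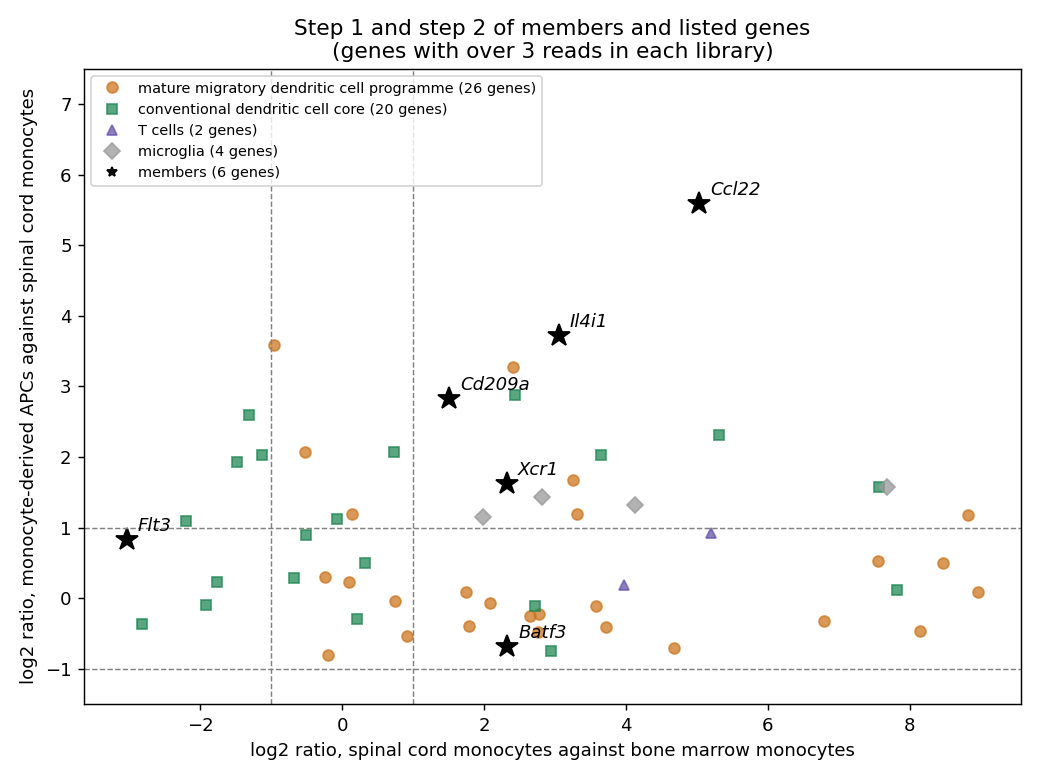
Log2 ratio of spinal cord to bone marrow monocytes (x axis) and of APCs to spinal cord monocytes (y axis) for 6 of the 10 genes (stars) and for listed genes with over 3 reads in each library, by list, with dashed lines at 2-fold. Many of the genes drawn from the mature migratory programme lie to the right near 0 on the y axis, while Ccl22 is at 5.03 and 5.58 and Flt3 is far left. Genes with 3 reads or fewer in any library are not drawn. Il12b and Cacnb3 of that programme are left out for this reason, with log2 ratios of APCs to spinal cord monocytes of 3.69 and 3.97.

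Signalling pathways known to act in the maturation of dendritic cells and in their growth from monocytes in culture were read from further lists. Of 10 genes of the alternative NF-kappa B pathway, all passed, 5 were called higher between the monocyte libraries and 0 between APCs and spinal cord monocytes, with medians of 1.23 and -0.28. Cd40 was at 9.16, 109 and 82.8 TPM. Of 16 genes of the response to GM-CSF and IL-4, 15 passed in each step, and 9 were called higher and 2 lower between the monocyte libraries, with a median of 2.24. Between APCs and spinal cord monocytes, 1 was called higher and 1 lower, Mrc1 (6.59 to 17.9 TPM) and Chil3 (9189 to 3902 TPM), with a median of -0.40. Over all genes tested, 13.8% were called higher and 10.7% lower between the monocyte libraries. The shares between APCs and spinal cord monocytes were 1.93% and 1.70%.

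Markers of other cells differed between the libraries as well. Of 8 T cell markers, 7 were over 3 TPM in both spinal cord libraries and 0 in bone marrow monocytes, where 5 had 3 reads or fewer, and they summed to 0.864, 49.7 and 74.8 TPM. T cells can express Ccr7. Cd3e had 1, 138 and 285 reads, and the log2 ratios of the 8 markers between APCs and spinal cord monocytes ran from 0.20 to 0.95 with none called. The part of T cells in the level of Ccr7 was not tested. Of the markers of B cells, which also express Ccr7, Pax5 had 0, 1 and 3 reads, with a sum over the list of 8.69, 3.70 and 3.99 TPM that was mostly Cd79b.

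All 5 microglia markers were called higher in both steps, and they summed to 12.7, 86.8 and 222 TPM. Their log2 ratios between APCs and spinal cord monocytes were 1.15 to 2.08, smaller than those of the 7 called genes. Sall1, a transcription factor of microglia, had 0, 300 and 1415 reads. Over all genes tested, 13.8% were called higher and 10.7% lower between the monocyte libraries, and 1.93% and 1.70% between APCs and spinal cord monocytes. Markers of plasmacytoid dendritic cells summed to 23.3, 42.5 and 85.9 TPM, and 3 of 8 were over 3 TPM in both spinal cord libraries. They were Siglech, which microglia also express, at 15.2 and 44.4 TPM, Tcf4 at 20.6 and 23.7 TPM, and Cox6a2 at 3.39 and 12.6 TPM, while Klk1 had 0 reads throughout. NK cell markers summed to 8.15 TPM in APCs and 0.132 TPM in the bone marrow library. Markers of border macrophages summed to 15.7, 36.8 and 51.1 TPM, and they differed among themselves. Lyve1 had 0, 2 and 0 reads, whereas Mrc1 was called higher in both steps, at 1.45, 6.59 and 17.9 TPM. Between APCs and bone marrow monocytes, 4 markers of this list passed the filter. Of these, 2 were called higher and 1 lower, against 14.0% and 11.8% of all genes tested. Neutrophil markers summed to 7576, 1296 and 1232 TPM, and they went in both directions. In bone marrow monocytes S100a8 and S100a9 gave most of this sum, at 4471 and 2244 TPM. Ly6g, the gene of the sort gate, was at 2.57, 1.71 and 1.64 TPM and did not pass the filter. Between the monocyte libraries 6 of the 7 neutrophil markers passed the filter, with 3 called lower and 2 higher. The 6 monocyte markers summed to 44088, 24439 and 13665 TPM. The part of these cells in the levels of the 10 genes was not tested.

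**Figure D4:**
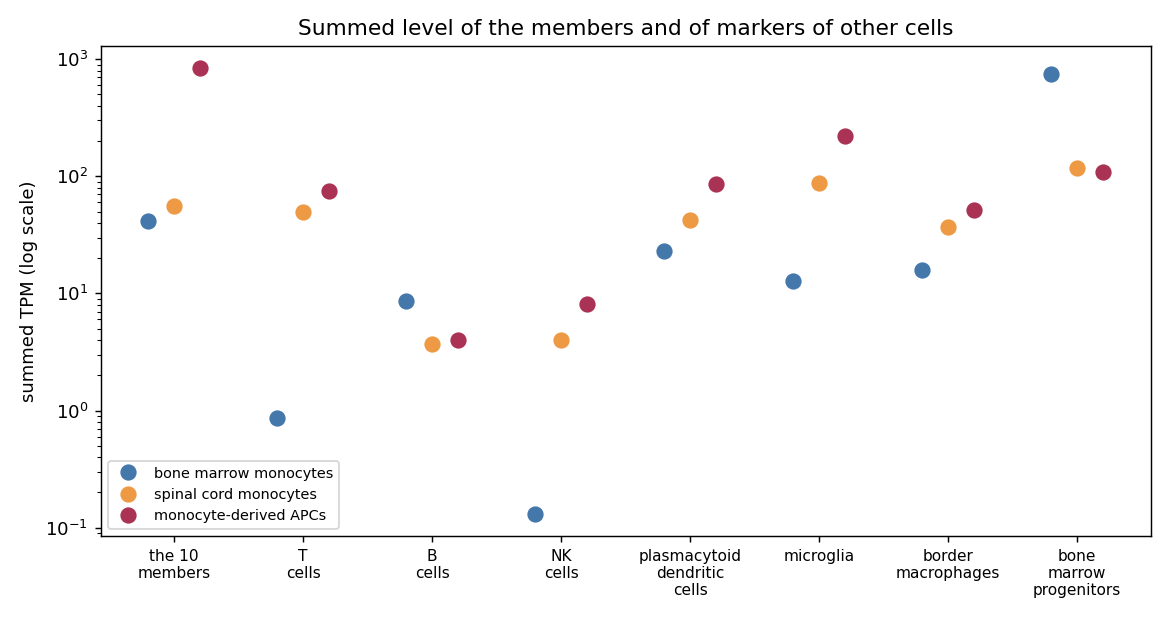
Summed level, in TPM on a log axis, of the 10 genes and of marker lists of other cells in the 3 pooled libraries. From spinal cord monocytes to APCs the 10 genes go from 56.0 to 837 TPM, the microglia markers from 86.8 to 222 TPM and the T cell markers from 49.7 to 74.8 TPM.

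Genes with a like pattern were sought for 6 of the 10, by the distance between log2 levels (TPM plus 1) centred over the 3 libraries, among 10010 genes. With 3 libraries such a pattern is a pair of differences, so many genes come close by this measure. The nearest to Ccr7 were Gm49450, Fscn1 and Rpl12, at distances of 0.17, 0.36 and 0.47. The nearest to Ccl22 were Gm49450, Ccr7 and Gm10160, and to Ccl17 Mmp12, Gm10160 and Klrb1b. Mmp12, macrophage elastase, was at 1.23, 53.9 and 496 TPM. Gm10160 had 9 reads in spinal cord monocytes and Gm49450 had 45, and Rpl12, a ribosomal protein gene, was at 41.5 TPM there and at 839 TPM in APCs. The part of the other transcript set of the APC library in these 3 patterns was not tested.

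The nearest to Il4i1 were Gm17374, Il12b and Klrd1, at 0.17, 0.23 and 0.35. Gm17374 had only 1, 2 and 17 reads, and in bone marrow monocytes Il12b had 0 reads and Klrd1 had 1. The nearest to Flt3 were Prr11, Ighm and Mcm6, at distances of 0.08 to 0.10. Mcm6, a subunit of the replicative helicase, was at 86.2, 10.5 and 16.6 TPM, and Ighm, the heavy chain of IgM, at 192, 21.9 and 40.1 TPM. The nearest to Batf3 were Otud1, Xaf1 and Gas2l3, at 0.03 to 0.06, and Xaf1, an interferon-inducible gene, was at 39.7, 143 and 80.3 TPM. With 0.1 added to TPM in place of 1, 2 of the 3 genes were found again for Ccr7 and Ccl22, 1 for Ccl17 and 0 for Flt3, Batf3 and Il4i1.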

How the data were processed

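RNA of each sorted population was sequenced as 1 pooled library (50-base paired-end reads). The authors estimated expression with Salmon 0.14.1 on GENCODE vM22 (mm10), and deposited TPM values and estimated counts of reads per gene. The deposited TPM corrects for effective length and depth, whereas the estimated counts carry no normalization. Other per-sample columns left unused numbered 0.

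Estimated counts were rounded to whole reads, and TPM values were scaled to an equal sum over the 22238 genes listed in all 3 libraries, which held 84.9% to 99.99% of the deposited TPM. Following the definition of GFold, which was not run, each log2 ratio between libraries got a gamma posterior from reads plus 1, with size factors by the median of ratios. Calls required percentile 1 or 99 to lie beyond a 2-fold change, and TPM over 3 in either library. Ratios against 1 to 3 reads carry a 95% exact interval, and those against 0 reads are bounds at 3 reads. The script was tested on simulated data.

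Coordinates are from GENCODE M21 (GRCm38), which gives all 10 genes the same identifier and version, and promoters are from RefSeq (GRCm38.p6). The genes named are the 10, up to 3 of the highest and up to 3 of the most changed of each list, defining markers of the sorted cells, the 3 nearest patterns, and paralogs or overlapping genes. The 10 genes and the lists were chosen with earlier results of these data known. The values of 1 marker gene are not reported here. Alternatives were other TPM thresholds, size factors, percentiles, added reads and spreads between libraries, TPM as deposited, unrounded reads, a plain ratio, reads per effective length, and all genes of the monocyte libraries. The analysis ran in Python 3.11.15 (scipy 1.17.1, numpy 2.4.6, pandas 2.3.3), figures were drawn with matplotlib 3.10.9, and TMM factors came from edgeR 4.0.16 in R 4.3.3.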

Additional observations from a re-analysis of the deposited data

How the results depend on the processing

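No paired analysis was possible because each population was 1 pooled library, and for the same reason no library could be left out. The 5 genes called higher between the monocyte libraries became 3 with a threshold of 4 TPM, where Ccr7 and Fscn1 fell under it, and 8 with no threshold. The gene called lower between APCs and bone marrow monocytes, Flt3, became 0 when a coefficient of variation of 0.4 was assumed between libraries, under which Batf3 between the monocyte libraries and Zbtb46 and Cd209a between APCs and spinal cord monocytes were not called either. The other 71 of 74 counts of the 10 genes stayed within 1.5 times, and no log2 ratio of the 10 changed sign. Ccl22 between APCs and spinal cord monocytes ran from 5.34 to 5.69 and Ccr7 from 4.50 to 4.92. Ratios to bone marrow monocytes depended more on the setting for genes with few reads there. Ccl22 ran from 2.30 to 5.13 between the monocyte libraries and from 7.65 to 10.7 between APCs and bone marrow monocytes. Between the monocyte libraries Il4i1 ran from 0.67 to 3.16 and Xcr1 from 0.37 to 2.38. Total reads in place of size factors moved log2 ratios by -0.18 between the monocyte libraries and by -0.14 between APCs and bone marrow monocytes.

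Counts over all genes moved more. Between APCs and spinal cord monocytes, 188 higher and 165 lower became 385 and 292 with no TPM threshold, 85 and 35 with a spread of 0.2, 43 and 14 with 0.4, 274 and 528 with a plain 2-fold ratio, and 232 and 320 with reads divided by effective length. Between the monocyte libraries, 1386 and 1073 became 2623 and 1178 with no threshold, 918 and 454 with a spread of 0.2, 630 and 225 with 0.4, 1315 and 1890 with a plain ratio, and 1371 and 1587 over all genes of those libraries. Between APCs and bone marrow monocytes, 1426 and 1199 became 2870 and 1333 with no threshold, 725 and 231 with a spread of 0.4, and 1315 and 2433 with a plain ratio, and with a spread of 0.2 the 1199 lower became 503. The cause of these shifts was not tested. Of 30 levels of the 10 genes, 3 left their interval with TPM as deposited, which was as low as 0.849 times the rescaled value. Where a gene had few reads, as the 4 with 3 reads or fewer in bone marrow monocytes did, depth limits how far its ratio is known.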
